A study of Rattus norvegicus with 24 samples.

Results

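The proteasome genes of rat liver were compared between a low-protein and an adequate diet. A gene belonged to the set when 1 probe set on the array paired with its symbol alone and the symbol was Psma, Psmb, Psmc, Psmd, Psme, Psmf or Psmg followed by a number. The set held 51 of the 17245 genes measured with 1 symbol. Of these, 45 encode proteasome subunits, activators, an inhibitor or assembly factors. The other 6 share the symbol only: Psma6-ps1, Psme1-ps1 and Psmb3l3 are pseudogenes, Psmb3l2 is a copy of Psmb3, and Psmc3ip and Psme3ip1 are named as interacting proteins. Psma3, Psmc3 and Psmg3 were not analysed here.

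The livers came from 24 male Wistar rats, an outbred strain, with 1 array per animal. The 4 groups of 6 were fed 5% protein for 4 weeks, 20% protein for 4 weeks, 5% protein for 1 week and 20% protein for 1 week. Percentages and times are those of the sample titles. The description codes hold 4 and 18 where the titles hold 5 and 20, and the design text names 4 weeks only, so both are in some doubt. No genetic change or drug is named for any group, and the labels give no age.

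The proteasome is the enzyme complex that takes apart proteins marked with ubiquitin. Its core is a barrel of α and β rings, with the cutting sites on the inside of the β rings. A cap of ATPases and other subunits sits on the end of the barrel, binds ubiquitin chains, removes them and feeds the unfolded protein in. Immune cells, and other cells exposed to interferon, replace the 3 cutting subunits by inducible ones, which changes the peptides made for MHC class I molecules. In the liver the proteasome works beside autophagy in protein turnover.

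Promoters are printed first for 5 genes described below, chosen from those that hold a motif searched for: Psmb8, Psmg4 and Psme4, which were called at 4 weeks, and Psmb10 and Psmb5, which were not. Of the 51 genes, 42 were matched to a promoter sequence from RefSeq (build GRCr8), which spans 250 bases before to 50 after the gene's start. Searches on both strands covered TGACNNNGC, the core of the antioxidant response element, which is bound by NRF1 (the product of Nfe2l1) and NRF2, and CCAAT, the box bound by NF-Y. GAAANNGAAA, the core of the interferon response element, was added after these promoters had been read. It was found in 7 of the 42 promoters (16.7%), against 3.92% of all 33469 promoters. TGACNNNGC was found in 7 (16.7%, against 12.1%) and CCAAT in 20 (47.6%, against 37.5%). In Psmb2 the last base of a CCAAT match is the first base of a TGACNNNGC match. A match is only a run of letters and says nothing of a factor bound there.

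The first 3 windows below hold GAAANNGAAA, in capitals on either strand, and belong to 2 inducible core subunits and the assembly factor with the largest diet difference. All windows run from 120 bases before the start to 30 after it. They lie at chr20:4657002-4657151 for Psmb8, chr19:50743263-50743412 for Psmb10 and chr17:30923344-30923493 for Psmg4, each on the minus strand.
Psmb8: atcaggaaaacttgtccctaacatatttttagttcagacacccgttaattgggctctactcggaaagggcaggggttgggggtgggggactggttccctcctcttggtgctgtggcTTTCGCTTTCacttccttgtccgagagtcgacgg
Psmb10: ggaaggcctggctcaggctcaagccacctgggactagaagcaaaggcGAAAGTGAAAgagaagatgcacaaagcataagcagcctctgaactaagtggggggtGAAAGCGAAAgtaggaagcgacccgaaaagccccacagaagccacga
Psmg4: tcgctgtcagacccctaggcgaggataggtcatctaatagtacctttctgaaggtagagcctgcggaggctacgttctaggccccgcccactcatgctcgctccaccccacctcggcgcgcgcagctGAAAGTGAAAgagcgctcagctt
The match lay at -4 to 6 from the start in Psmb8, at -73 to -64 and -17 to -8 in Psmb10, and at 8 to 17 in Psmg4. The other promoters with a match were those of Psma4, Psmb3, Psmd7 and Psme2. The promoter of Psmb9, the remaining inducible cutting subunit, held no such letters in the 300 bases searched.

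The next windows hold TGACNNNGC, in capitals on either strand. They belong to the standard counterpart of Psmb8 and to the activator subunit that was called lower. They lie at chr15:32047350-32047499 (minus strand) for Psmb5 and chr14:108706523-108706672 (plus strand) for Psme4.
Psmb5: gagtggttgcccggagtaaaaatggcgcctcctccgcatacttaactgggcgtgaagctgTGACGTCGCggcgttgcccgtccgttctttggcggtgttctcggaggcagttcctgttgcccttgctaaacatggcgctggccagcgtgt
Psme4: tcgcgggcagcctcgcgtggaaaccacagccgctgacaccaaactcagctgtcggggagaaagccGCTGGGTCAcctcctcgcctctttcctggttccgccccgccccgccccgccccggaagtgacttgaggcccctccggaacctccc
The match lay at -60 to -52 in Psmb5 and at -55 to -47 in Psme4. Psmb2, Psmb6, Psmd1, Psmd3 and Psmd9 held the other matches.

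Values below are log2 of the deposited array intensity. A difference is the mean on 5% protein minus the mean on 20% protein on that scale, given with its standard error (SE). A gene was called higher or lower where its adjusted p (Benjamini-Hochberg, over all 17245 genes) was under 0.05 in limma, a linear model that shares an estimate of the spread across genes. Median intensity ran from 42.4 to 45.5 over the arrays, whose number limits the precision. The summed intensity of 5 hepatocyte markers was 38810 to 46066 on 5% and 41793 to 50380 on 20% protein at 4 weeks. With no other tissue measured beside them, these sums cannot show which tissue was sampled. The animal numbers fall into 4 runs. Animals 22 to 32 and 59 to 73 were fed for 4 weeks, and animals 49 to 54 and 74 to 79 for 1 week. What separates the runs is not given in the labels.

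After 4 weeks, the diets differed in a few proteasome genes and little in the standard particle. The inducible cutting subunits Psmb8 and Psmb9 were lower on 5% protein, and the assembly factors Psmg4 and Psmg2 were higher. Of the 51 genes, 5 were called higher (9.8%) and 6 lower (11.8%). Among all genes, 13.4% were called higher and 12.4% lower, so the shares of the proteasome genes lay near and below the background. The median difference was -0.02 over the 51 genes and -0.01 over all genes. The groups did not overlap for 2 genes that were higher and 1 that was lower, against 6.55% and 5.88% of all genes. The diets were spread unevenly over the 2 runs fed for 4 weeks, so diet and run were partly mixed in every comparison at 4 weeks. Animals 22 to 32 held 5 animals on 5% protein and 2 on 20%. Within animals 22 to 32, 2 of the 51 genes were called higher and 4 lower, against 8.32% and 7.54% of all genes. The higher ones were Psmg4 and Psmg2. The lower ones were Psmb8, Psma1 (-0.27), Psmc2 (-0.34) and Psmf1 (-0.33), of which only Psmb8 was called over both runs together. Within animals 59 to 73, 2 were higher and 2 lower, against 6.83% and 5.49% of all genes. These last counts rest on 1 animal on 5% protein (animal 59) against 4 on 20%, with the spread taken from the other groups, so they are no replicated test of that run. This holds for every value within animals 59 to 73 below.

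**Figure D1:**
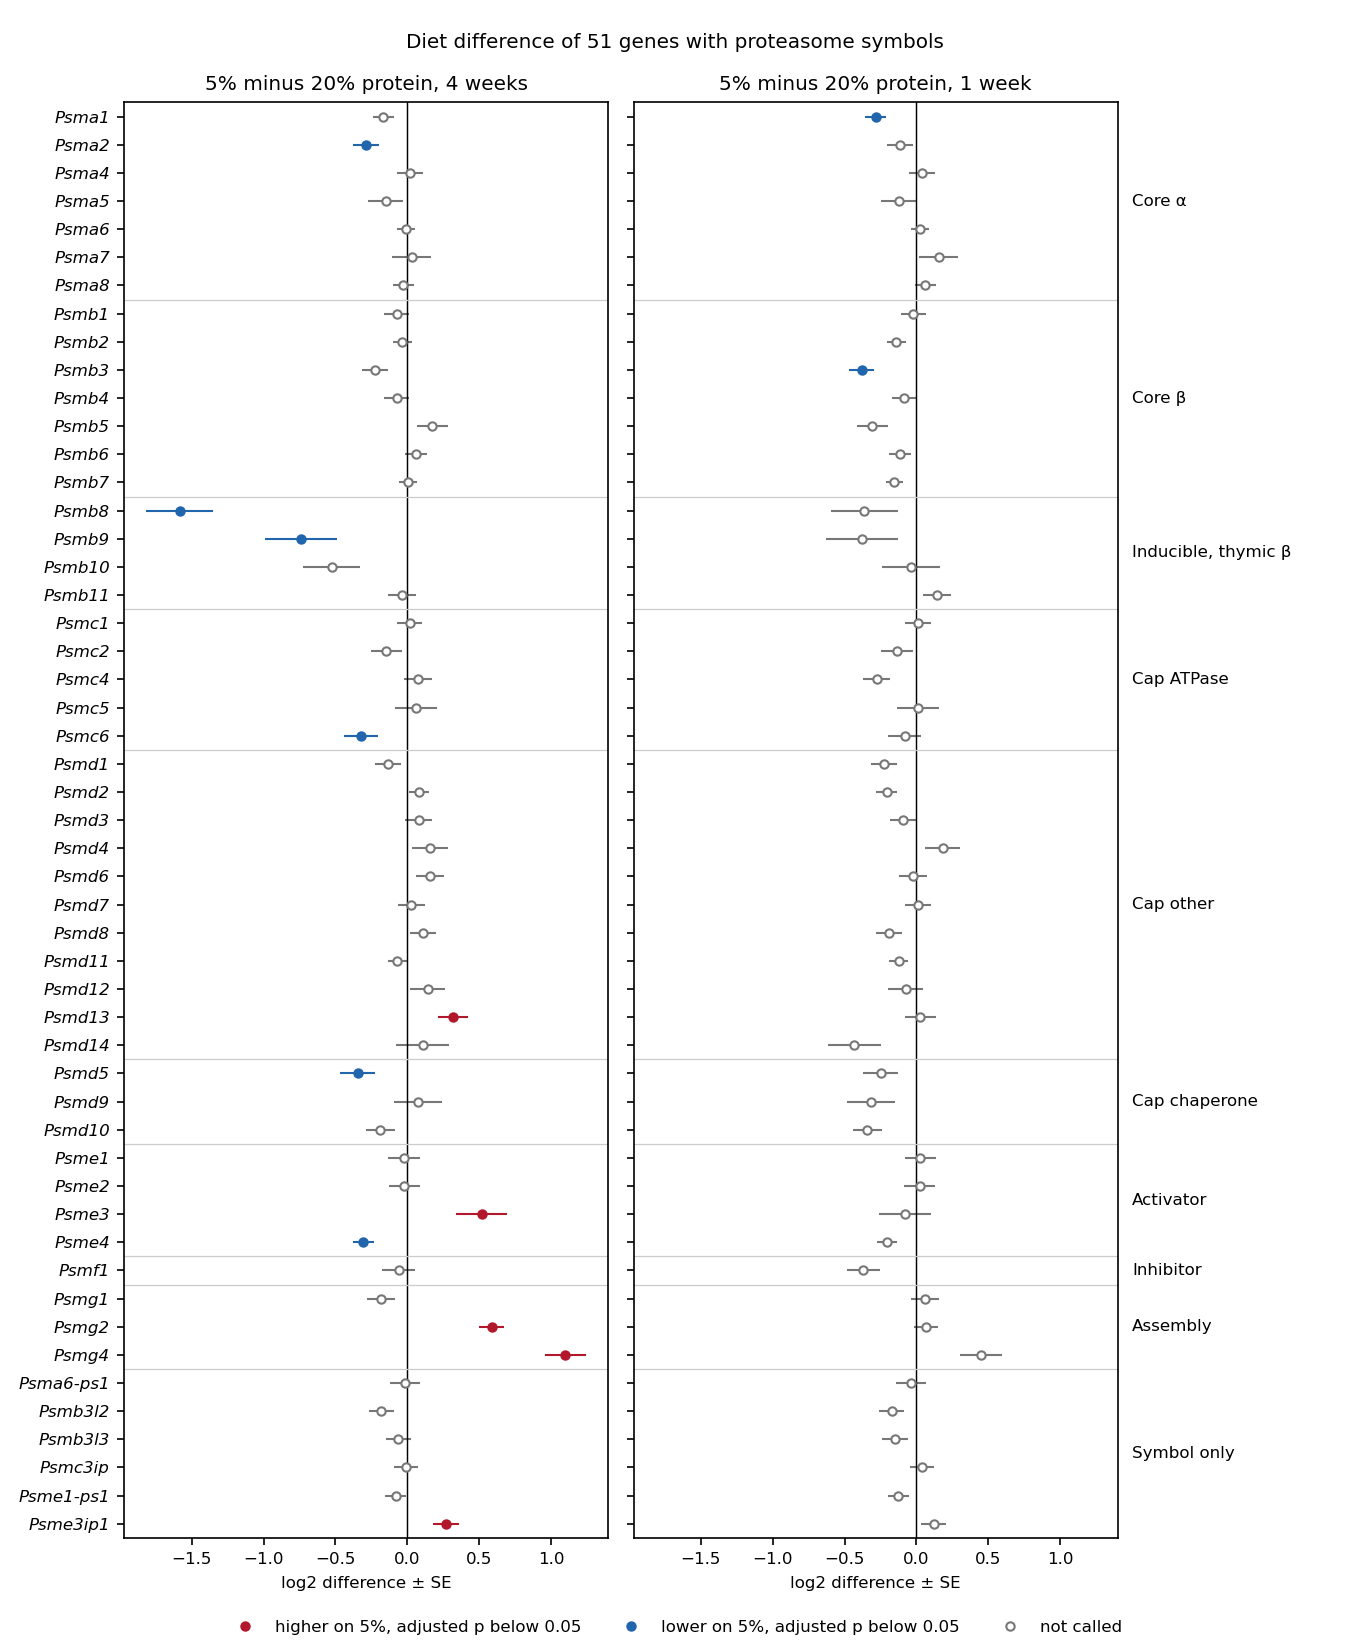
Difference between the diets in log2 intensity (x axis, 5% minus 20% protein, with SE) for each of the 51 genes, ordered by role from top to bottom, at 4 weeks (left) and 1 week (right). Filled red points were called higher on 5% protein, filled blue points lower, and open points were not called. At 4 weeks Psmb8 stands far to the left (-1.58) and Psmg4 far to the right (1.10), while most subunits lie near 0.

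Psmb8 encodes the inducible form of the chymotrypsin-like cutting subunit. Its lowest, median and highest values were 6.33, 6.80 and 7.18 on 5% protein at 4 weeks, against 8.03, 8.18 and 8.89 on 20% protein. Every 5% animal lay below every 20% animal. The difference was -1.58 ± 0.23 (SE, n = 6 animals per group), a 3.0-fold lower intensity, with limma's adjusted p = 1.62e-05. It was -1.31 within animals 22 to 32 (adjusted p = 0.00741) and -2.10 within animals 59 to 73, from the single 5% animal. At 1 week the same gene read 6.82, 7.57 and 7.81 on 5% protein, against 7.26, 7.73 and 8.56 on 20% protein. There the groups overlapped, and the difference of -0.36 ± 0.23 was not called (adjusted p = 0.457).

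Psmb9 encodes the inducible form of the caspase-like subunit. At 4 weeks its values were 7.89, 8.47 and 8.96 (lowest, median, highest) on 5% protein, against 8.79, 9.14 and 9.52 on 20% protein. A single 5% animal reached into the range of the 20% group. The difference was -0.74 ± 0.25 (adjusted p = 0.0321, limma, n = 6 animals per group). It was not called within animals 22 to 32 (-0.77, adjusted p = 0.117), nor without any 1 of 5 animals (adjusted p from 0.0550 to 0.0838). These were animals 22, 23 and 32 of the 5% group and 63 and 73 of the 20% group. Psmb10, the inducible form of the trypsin-like subunit, read 8.0, 8.23 and 8.55 on 5% protein, against 8.33, 8.86 and 8.96 on 20% protein. One animal of each diet lay within the range of the other, and the difference of -0.53 ± 0.20 was not called (adjusted p = 0.0563). At 1 week Psmb9 differed by -0.38 ± 0.25 and Psmb10 by -0.04 ± 0.20, neither of them called (adjusted p = 0.479 and 0.959, limma). Psmb11, the β subunit of the thymus, differed by -0.04 at 4 weeks and was not called.

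**Figure D2:**
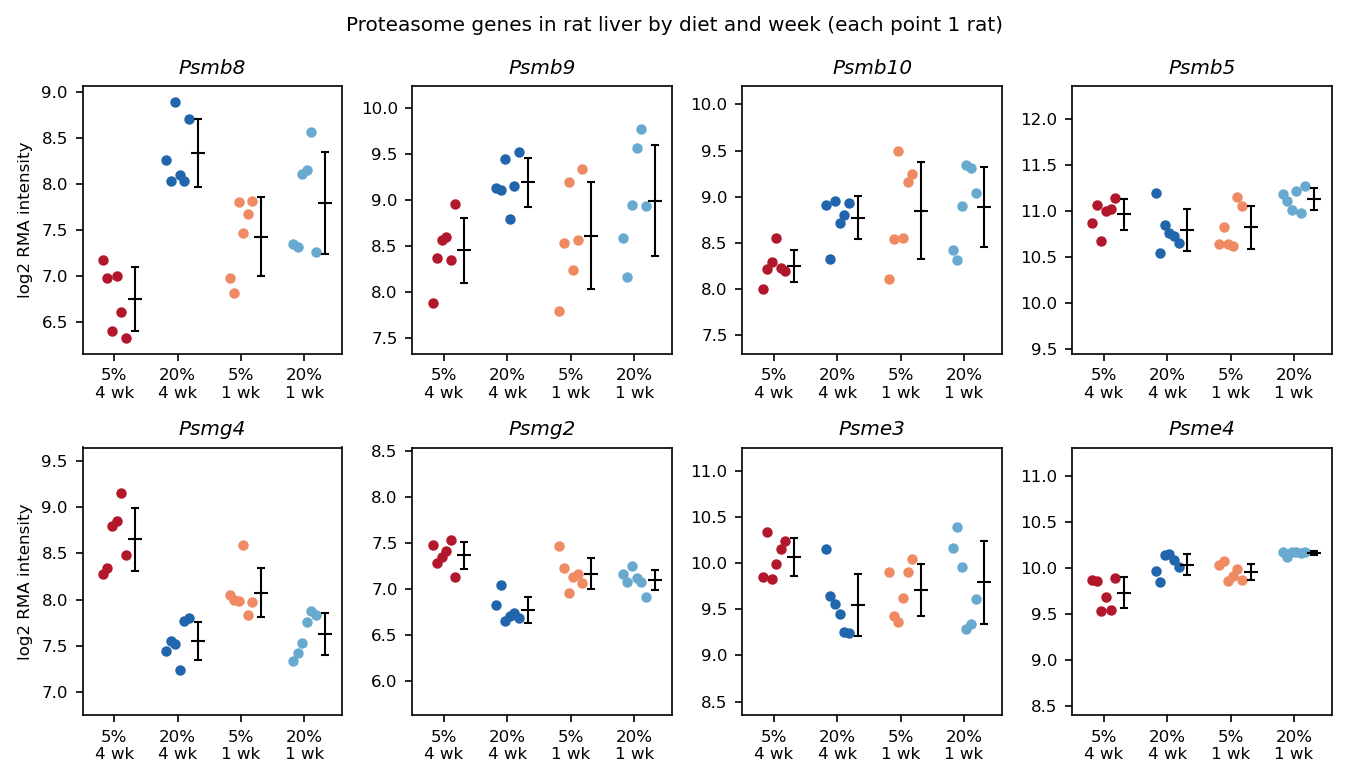
Log2 intensity of 8 proteasome genes (y axis) in each of the 24 rats, by diet and week (x axis). Each point is 1 rat, and the bar beside the points is the mean ± SD (n = 6). At 4 weeks Psmb8 is lower on 5% protein, and Psmg4 and Psmg2 are higher, with no overlap between the diets.

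None of the standard partners of the inducible subunits was called at 4 weeks. Psmb5, the standard chymotrypsin-like subunit, read 10.68, 11.01 and 11.14 on 5% protein at 4 weeks, against 10.54, 10.75 and 11.20 on 20% protein (difference 0.17 ± 0.11, adjusted p = 0.271). Psmb6, the caspase-like subunit, read 9.85, 10.01 and 10.20, against 9.82, 9.998 and 10.06, a difference of 0.06 ± 0.08. Psmb7, the trypsin-like subunit, read 11.02, 11.10 and 11.27, against 11.01, 11.12 and 11.21, a difference of 0.00 ± 0.06. The diet groups overlapped over most of their range in all 3 genes (adjusted p = 0.271 to 0.988, limma).

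To set each inducible subunit against its partner within an array, the log2 ratio of the pair was taken and centred on its mean over the 24 rats. The ratio of Psmb8 to Psmb5 averaged -0.86 ± 0.38 on 5% protein at 4 weeks, against 0.89 ± 0.41 on 20% protein (SD, n = 6). The groups did not overlap: the highest 5% animal stood at -0.34 and the lowest 20% animal at 0.40. For Psmb9 to Psmb6 the means were -0.31 ± 0.27 on 5% and 0.49 ± 0.31 on 20% protein, and for Psmb10 to Psmb7 they were -0.40 ± 0.18 and 0.13 ± 0.20 in the same order. At 1 week the mean ratio of Psmb8 to Psmb5 was -0.04 ± 0.41 on 5% and 0.01 ± 0.64 on 20% protein. These ratios are built from the values already given and were not tested. A ratio within an array shows unequal change, not which gene moved.

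**Figure D3:**
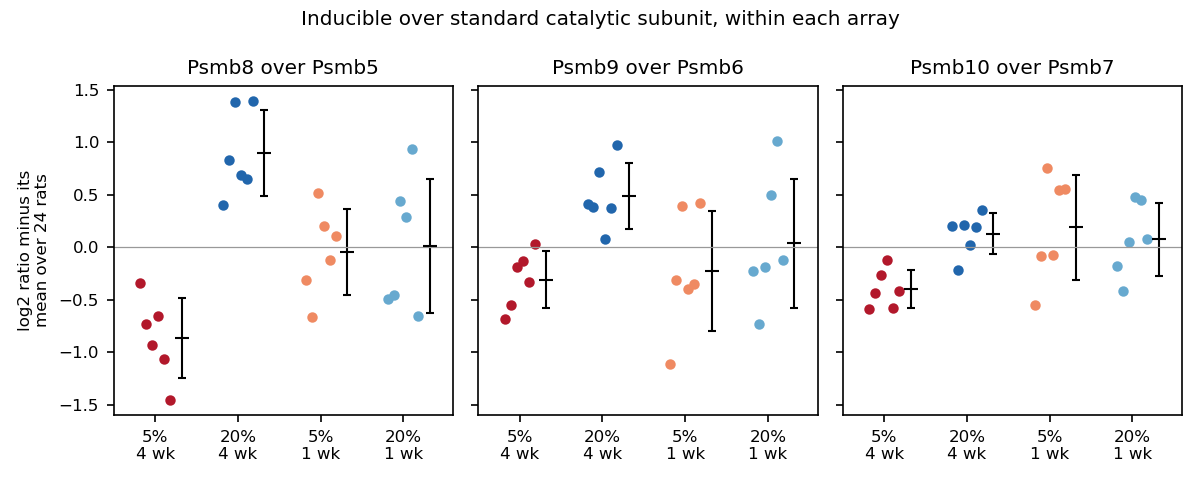
Log2 ratio of an inducible to its standard cutting subunit within each array, minus its mean over 24 rats (y axis), by diet and week (x axis), with mean ± SD beside the points. For Psmb8 over Psmb5 at 4 weeks, all 5% animals lie at -0.34 or lower and all 20% animals at 0.40 or higher.

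The inducible subunits also varied most between animals of the same group. The pooled SD within groups was 0.47 for Psmb9, 0.43 for Psmb8 and 0.37 for Psmb10. The median of the 51 genes was 0.17, against 0.18 for all genes. In the 20% group at 1 week, Psmb8 was 7.26 to 7.35 in 3 animals and 8.11 to 8.56 in the other 3, and each run of animal numbers held animals of both kinds.

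Liver is a mixture of cells, and in bulk RNA fewer cells of a type and less RNA per cell cannot be told apart. Of 8 Kupffer cell and macrophage markers, 6 were lower on 5% protein at 4 weeks (C1qa, Clec4f, Adgre1, Vsig4, Cd163 and Cd68, by 0.43 to 0.79 on the log2 scale), against 12.4% of all genes. The summed intensity of the 8 markers was 2770 to 3419 on 5% protein, against 4197 to 6812 on 20% protein, with no overlap. The sum of 8 lymphocyte markers was 761 to 999 on 5% protein, against 1018 to 1703 on 20% protein, and 2 of these markers were lower (Ptprc and Cd4). The T cell markers Cd3e and Cd3d differed by 0.01 and -0.03. For 5 markers of dendritic and antigen-presenting cells, the sums overlapped (2590 to 3824 on 5% and 2274 to 7873 on 20% protein), and 1 of the 5 was lower (Flt3). At 1 week 0 members of these 3 lists were called by limma, and 1 of the 8 Kupffer cell markers had an unadjusted p below 0.05. Of the other markers at 4 weeks, 3 of 5 for hepatocytes, 1 of 3 for endothelium, 2 of 5 for stellate cells, 2 of 4 for erythroid cells and 1 of 5 for dividing cells were lower, and 2 of 4 for cholangiocytes were higher, against 12.4% lower and 13.4% higher of all genes. At 1 week 2 of 5 markers of dividing cells, 2 of 4 of erythroid cells and 1 of 5 of stellate cells were lower, against 2.44% of all genes. The array values have no true zero and no detection call, so it cannot be said which markers were absent. The part of these cells in the difference of the inducible subunits was not tested.

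The MHC class I genes, which use the peptides that the inducible core makes, were described beside it. Of 10 measured genes of this list, 5 were lower on 5% protein at 4 weeks and 0 higher, against 12.4% and 13.4% of all genes, with a median of -0.26. The 3 with the smallest p were B2m (-0.32 ± 0.06, adjusted p = 0.000272), the constant chain of the class I molecule, Pdia3 (-0.31 ± 0.07, adjusted p = 0.00306), a chaperone of its loading complex, and Nlrc5 (-0.69 ± 0.20, adjusted p = 0.0130), its transcriptional activator. B2m was 12.68 to 12.85 on 5% protein, against 13.04 to 13.21 on 20% protein, with no overlap. Tap1, the peptide transporter, and Calr were the other 2. The interferon-induced regulator Irf1 differed by -0.01. At 1 week limma called 0 of the 10, and 0 had an unadjusted p below 0.05.

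Among the assembly factors, Psmg2 forms a pair with Psmg1 that builds the α ring, and Psmg4 acts in a second chaperone pair. Psmg4 read 8.27, 8.64 and 9.16 (lowest, median, highest) on 5% protein at 4 weeks, against 7.24, 7.53 and 7.80 on 20% protein. All 5% animals lay above all 20% animals. The difference was 1.10 ± 0.15, a 2.15-fold higher intensity (adjusted p = 4.35e-06, limma, n = 6 animals per group), and it was called within animals 22 to 32 (1.19). Within animals 59 to 73 it was 0.90, from the single 5% animal. At 1 week Psmg4 read 7.83, 7.99 and 8.60 on 5% protein, against 7.34, 7.64 and 7.87 on 20% protein. The groups overlapped there by a narrow margin, and the difference of 0.45 ± 0.15 was not called (adjusted p = 0.0853).

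Psmg2 read 7.13, 7.38 and 7.53 on 5% protein at 4 weeks, against 6.65, 6.73 and 7.04 on 20% protein, again without overlap. Its difference was 0.59 ± 0.09 (1.5-fold, adjusted p = 1.52e-05, limma, n = 6 animals per group). Within the runs it was 0.48 in animals 22 to 32 (adjusted p = 0.00486) and 0.43 in animals 59 to 73. At 1 week the values were 6.95, 7.14 and 7.46 on 5% protein, against 6.92, 7.10 and 7.25 on 20% protein, and the difference of 0.07 ± 0.09 was not called. Its partner Psmg1 differed by -0.18 ± 0.10 at 4 weeks (adjusted p = 0.184) and by 0.06 ± 0.10 at 1 week. Of the factors that help build the cap, Psmd5 read 8.01, 8.18 and 8.60 on 5% protein at 4 weeks, against 8.31, 8.53 and 8.89 on 20% protein. The ranges overlapped, and the gene was called lower (-0.34 ± 0.12, adjusted p = 0.0394). That call was lost without any 1 of 9 animals (adjusted p from 0.0527 to 0.106), on centring the array medians (adjusted p = 0.0543) and with run as a covariate (adjusted p = 0.0518). The cap chaperones Psmd9 and Psmd10 differed by 0.08 and -0.19 and were not called.

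The activators open the core without the cap. Psme3, the nuclear activator, read 9.83, 10.07 and 10.34 on 5% protein at 4 weeks, against 9.25, 9.50 and 10.15 on 20% protein. The ranges overlapped, and the gene was called higher (0.52 ± 0.18, adjusted p = 0.0346, limma). The difference was 0.13 in animals 22 to 32 and was not called there (adjusted p = 0.688). It was 0.87 in animals 59 to 73, from the single 5% animal. The call was lost without any 1 of 7 animals (adjusted p from 0.0530 to 0.0830). Psme4, the single-chain activator of the nucleus, read 9.53, 9.77 and 9.90 on 5% protein, against 9.85, 10.05 and 10.16 on 20% protein. The ranges overlapped at their ends, and the gene was called lower (-0.30 ± 0.07, adjusted p = 0.00228). The difference was -0.21 in each run and was not called within animals 22 to 32 (adjusted p = 0.161), nor with run as a covariate (-0.21, adjusted p = 0.0544).

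Psme1 and Psme2 form the interferon-inducible activator, and neither passed the test at 4 weeks or 1 week. Psme1 read 10.39, 10.67 and 10.89 on 5% protein at 4 weeks, against 10.56, 10.65 and 10.87 on 20% protein, a difference of -0.02 ± 0.11. Psme2 read 10.86, 11.07 and 11.22, against 10.83, 11.13 and 11.19, a difference of -0.02 ± 0.11. A second probe set of Psme2 gave -0.06. Limma called neither gene (adjusted p = 0.908 and 0.925). The inhibitor Psmf1 read 9.75, 10.01 and 10.15 on 5% protein at 4 weeks, against 9.73, 9.98 and 10.35 on 20% protein. Over both runs together it was not called (-0.06 ± 0.11). Within animals 22 to 32 Psmf1 was called lower (-0.33, adjusted p = 0.0432, limma). Within animals 59 to 73 its difference was -0.004, from the single 5% animal.

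The standard core and cap were measured by 29 genes: 6 of the α ring, 7 of the β ring, 5 ATPases and 11 other cap subunits. At 4 weeks 1 of the 29 was called higher (3.45%) and 2 lower (6.9%), against 13.4% and 12.4% of all genes, with differences from -0.32 to 0.32 and a median of 0.02. Psmd13, a cap lid subunit, was the higher one. It read 8.94, 9.05 and 9.24 on 5% protein, against 8.51, 8.72 and 9.10 on 20% protein, with some overlap (0.32 ± 0.10, adjusted p = 0.0247). Psma2 of the α ring read 8.24, 8.64 and 8.76, against 8.69, 8.91 and 8.95, also with overlap (-0.28 ± 0.09, adjusted p = 0.0219). The ATPase Psmc6 read 9.45, 9.62 and 9.71, against 9.62, 9.92 and 10.20 (-0.32 ± 0.12, adjusted p = 0.0432). Its ranges overlapped at their ends.

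Each of these 3 calls was lost under some settings. Psmd13 was not called within either run (0.26 in animals 22 to 32 and 0.27 in animals 59 to 73) or without animal 29, 32 or 63 (adjusted p from 0.0620 to 0.0670). Psma2 was not called within animals 22 to 32 (-0.23, adjusted p = 0.222) or without animal 59 (adjusted p = 0.0705), the single 5% animal of the later run, where the difference was -0.63. Psmc6 lost its call without any 1 of 10 animals (adjusted p from 0.0523 to 0.109), on centring the array medians (adjusted p = 0.0670) and with run as a covariate (adjusted p = 0.0556). Psmd4, the cap's ubiquitin receptor, read 8.28, 8.63 and 8.71 on 5% protein, against 8.21, 8.36 and 8.73 on 20% protein (0.16 ± 0.12). Psmd14, which removes the ubiquitin chain, read 8.85, 9.33 and 9.60, against 8.86, 9.01 and 9.85 (0.11 ± 0.19). The diet groups overlapped fully in both, and neither was called. Of the 6 genes with the symbol only, Psme3ip1 was called higher (0.27 ± 0.09, adjusted p = 0.0243), from 8.31 to 8.68 on 5% protein, against 8.01 to 8.503 on 20% protein. It was not called within the runs or without animal 32, 72 or 73 (adjusted p from 0.0525 to 0.0726). Psmc3ip, a meiosis factor, read 5.49 to 5.80 and 5.42 to 5.99 in the same order and was not called (-0.01 ± 0.09). The other 4 differed by -0.18 to -0.01, and none was called.

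After 1 week the called genes were other ones: 2 subunits of the standard core, Psmb3 and Psma1, were lower on 5% protein, and no inducible subunit or assembly factor was called. At 4 weeks both differed in the same direction without a call (Psmb3 -0.23 ± 0.09, adjusted p = 0.0658, and Psma1 -0.17 ± 0.07, adjusted p = 0.0979, limma). Their diet effect was not called different between 4 weeks and 1 week (adjusted p = 0.522 and 0.567, limma). Of the 51 genes 0 were called higher and 2 lower (3.92%), against 1.86% and 2.44% of all genes. An unadjusted p below 0.05 was found for 14 of the 51, against 17.7% of all genes. The median difference was -0.09, against -0.01 over all genes, and 34 of the 51 lay below 0, against 52.3% of all genes. The groups did not overlap for 3 genes that were lower on 5% protein (Psmb3, Psmd10 and Psme4) and 0 that were higher, against 1.36% and 1.2% of all genes.

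Psmb3, a structural subunit of the β ring, read 9.61, 10.05 and 10.12 on 5% protein at 1 week, against 10.18, 10.34 and 10.48 on 20% protein. No 5% animal reached the 20% group. The difference was -0.38 ± 0.09 (adjusted p = 0.0145, limma, n = 6 animals per group), and it was -0.39 within animals 74 to 79 and -0.37 within animals 49 to 54, not called in either (adjusted p = 0.0697 and 0.0880). Its copies Psmb3l2 and Psmb3l3 have similar sequence, so the array may not keep the 3 apart; they were not called. Psma1 of the α ring read 10.38, 10.44 and 10.47, against 10.45, 10.70 and 10.98. The groups touched at the lowest 20% animal, and the gene was called lower (-0.28 ± 0.07, adjusted p = 0.0256). Its call was lost without animal 52, 53, 74 or 75 (adjusted p from 0.0527 to 0.0631).

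The titles hold a code of a letter and a number, read here as a plate well, with the letter as the well row. The labels do not say what the code means. At 1 week no letter held both diets, so this row and diet cannot be told apart there. With the row as a random block, 0 of the 51 genes were called. Other genes came close to the threshold. Psmd10, a cap chaperone, read 6.84, 6.94 and 7.03 on 5% protein, against 7.16, 7.30 and 7.37 on 20% protein, without overlap (-0.34 ± 0.10, adjusted p = 0.0531). The inhibitor Psmf1 read 9.46, 9.69 and 9.92, against 9.78, 10.09 and 10.34 (-0.37 ± 0.11, adjusted p = 0.0661). Psmd2, the large scaffold of the cap, read 10.53, 10.61 and 10.73, against 10.59, 10.86 and 10.94 (-0.21 ± 0.07, adjusted p = 0.103). Psme4 lay at 9.86 to 10.08 on 5% protein, against a narrow 10.13 to 10.18 on 20% protein, and was not called (-0.21 ± 0.07, adjusted p = 0.105).

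At 1 week there were 2 runs of animal numbers, each with 3 animals per diet, and some genes differed between the runs in their diet effect. In animals 49 to 54, 9 of the 51 genes were lower on 5% protein and 0 higher, against 4.71% and 2.86% of all genes. In animals 74 to 79, 0 were called in either direction, against 4.45% lower and 4.04% higher of all genes; an unadjusted p below 0.05 was found for 12, against 20.8% of all genes. The median difference of the 19 cap genes, chaperones included, was 0.04 in animals 74 to 79 and -0.28 in animals 49 to 54. For the 18 core genes it was -0.15 and -0.05 in the same order.

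The difference between the runs in the diet effect was tested gene by gene. It was called positive for 4 genes and negative for 0, against 4.76% and 2.53% of all genes, and an unadjusted p below 0.05 was found for 15, against 20.7% of all genes. Psmc2, a cap ATPase, had the smallest p. In animals 74 to 79 it read 10.49, 10.54 and 10.62 on 5% protein, against 10.14, 10.32 and 10.44 on 20% protein. In animals 49 to 54 it read 10.14, 10.34 and 10.38 on 5% protein, against 10.70, 10.80 and 10.92 on 20% protein. The diets did not overlap in either run, but their order was opposite, and the effect differed by 0.77 ± 0.13 (adjusted p = 0.00174).

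The activator Psme3 differed most in size. In animals 74 to 79 it read 9.63, 9.91 and 10.05 on 5% protein, against 9.29, 9.34 and 9.61 on 20% protein. In animals 49 to 54 it read 9.37, 9.42 and 9.90 on 5% protein, against 9.96, 10.16 and 10.39 on 20% protein. The order of the diets was again opposite, with a difference in effect of 1.06 ± 0.24 (adjusted p = 0.0112). The cap lid subunits Psmd12 (0.69 ± 0.15, adjusted p = 0.00644) and Psmd6 (0.64 ± 0.14, adjusted p = 0.00621) were the other 2.

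Between the 20% animals of the later and the earlier run, 6 of the 51 genes were lower in the later run and 0 higher, against 6.53% and 4.3% of all genes. These were Psmc2, Psmd12, Psmd6, Psme3, Psmf1 and Psme3ip1. Between the 5% animals 0 were called, against 0.441% lower and 0.342% higher of all genes, and 4 of the 51 had an unadjusted p below 0.05, against 12.4% of all genes. What the runs stand for was not tested.

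**Figure D4:**
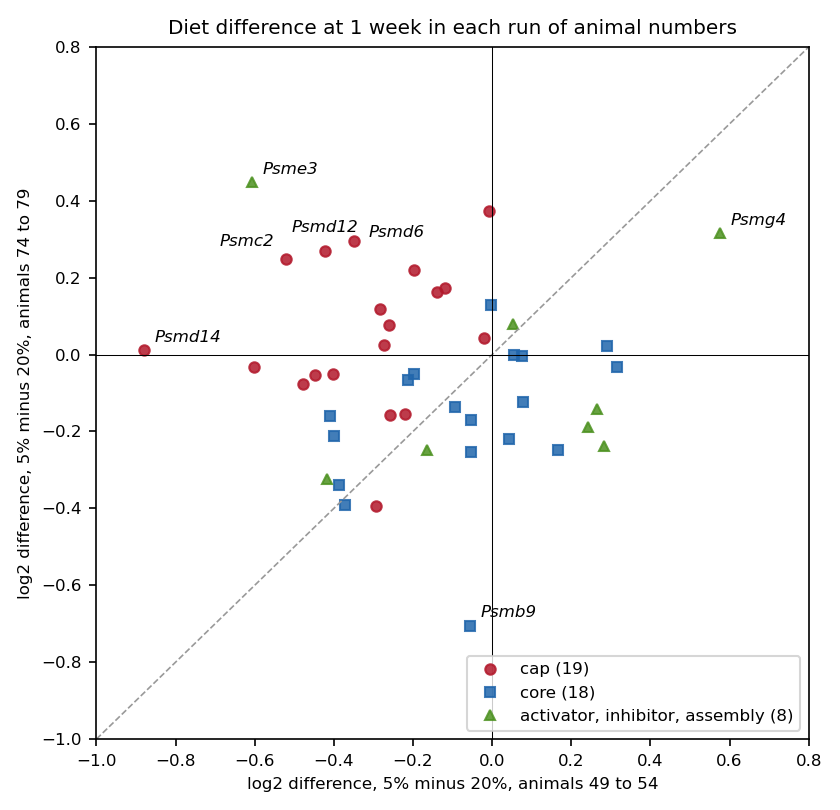
Log2 difference between the diets at 1 week in animals 74 to 79 (y axis) against that in animals 49 to 54 (x axis), for 45 proteasome genes by class. The dashed line marks equal differences. Cap genes (red circles) lie above the line in most cases, with Psmc2, Psmd6, Psmd12 and the activator Psme3 above 0 in the later run and below 0 in the earlier one.

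Whether the diet effect itself differed between 4 weeks and 1 week was tested as an interaction. It was called positive for 1 of the 51 genes and negative for 1, against 3.54% and 2.2% of all genes. Psmg2 had the positive one (0.52 ± 0.12, adjusted p = 0.0151) and Psmb8 the negative one (-1.22 ± 0.33, adjusted p = 0.0308). With run as a covariate neither was called (adjusted p = 0.0559 for Psmg2 and 0.0532 for Psmb8). The call of Psmb8 was also lost without any 1 of 8 animals (adjusted p from 0.0504 to 0.0573). Psmg4 (0.65 ± 0.21, adjusted p = 0.0604) and Psmb5 (0.48 ± 0.15, adjusted p = 0.0633) missed the threshold. So did Psmd2 (0.29 ± 0.10, adjusted p = 0.0896, limma) and the cap ATPase Psmc4 (0.35 ± 0.14, adjusted p = 0.128, limma).

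Between 4 weeks and 1 week on the same diet, few genes differed. Time and run cannot be told apart here, since no run held animals of both times. On 5% protein, Psmg4 was higher at 4 weeks than at 1 week (0.58 ± 0.15, adjusted p = 0.0152) and 0 genes were lower, against 4.15% and 4.13% of all genes. An unadjusted p below 0.05 was found for 10 of the 51, against 21.5% of all genes. That call was lost without animal 32 (adjusted p = 0.0503). On 20% protein, Psmg2 was lower at 4 weeks (-0.32 ± 0.09, adjusted p = 0.0415) and 0 genes were higher, against 1.5% and 1.02% of all genes. An unadjusted p below 0.05 was found for 9 of the 51, against 16.3% of all genes. This call was lost without any 1 of 11 animals (adjusted p from 0.0512 to 0.103). The diet comparisons and these share their groups, so they are not independent of each other. Psmb8 differed by -0.68 ± 0.23 on 5% protein (adjusted p = 0.0724) and by 0.54 ± 0.23 on 20% protein (adjusted p = 0.238), neither of them called.

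The genes that control or surround the proteasome were counted from lists of known genes. Of 12 regulators of proteasome gene transcription, 4 were higher and 1 lower on 5% protein at 4 weeks, against 13.4% and 12.4% of all genes. The list's median was 0.21, against -0.01 over all genes. Nfe2l1 encodes NRF1, the membrane-bound factor that raises proteasome genes when proteasome activity is short. It read 9.55, 9.81 and 10.08 on 5% protein, against 8.47, 8.90 and 9.05 on 20% protein, without overlap (0.97 ± 0.11, adjusted p = 3.09e-07). At 1 week it was also higher (0.40 ± 0.11, adjusted p = 0.0304), with 9.13, 9.45 and 9.57 on 5% protein, against 8.82, 9.02 and 9.13 on 20% protein. The groups met at 9.13 there.

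Its small Maf partners were higher at 4 weeks. Mafk read 7.50, 7.74 and 7.97 on 5% protein, against 6.70, 6.81 and 7.04 on 20% protein, without overlap (0.90 ± 0.08, adjusted p = 2.98e-08). Mafg (0.28) and Maff (0.34) were higher by less. Nfyb, a subunit of the factor that binds CCAAT, was lower (-0.71 ± 0.15, adjusted p = 0.000704), with 7.07 to 7.55 on 5% protein, against 7.64 to 8.25 on 20% protein. Nfe2l2, which encodes NRF2, read 10.52 to 11.47, against 10.51 to 10.90, and was not called (0.29 ± 0.16, adjusted p = 0.196). At 1 week Nfe2l3 was the 1 regulator that was lower (-0.29, adjusted p = 0.0458).

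Of 15 partners of the proteasome outside the symbol rule, 4 were higher and 1 lower at 4 weeks, against 13.4% and 12.4% of all genes, with a median of 0.15. Ube3c, a ligase at the proteasome, was higher by 0.36 ± 0.09 (adjusted p = 0.00455), the shuttle factor Ubqln4 by 0.31 ± 0.09 (adjusted p = 0.0128) and the shuttle factor Ubqln1 by 0.19 ± 0.06 (adjusted p = 0.0188). Zfand5 was the fourth, and Akirin2, which carries proteasomes into the nucleus, was lower (-0.23 ± 0.08, adjusted p = 0.0247). Pomp, the maturation factor of the core, read 9.59 to 10.37 on 5% protein, against 9.41 to 10.49 on 20% protein, and was not called (-0.18 ± 0.19). Adrm1, a ubiquitin receptor of the cap, read 9.08 to 9.79, against 8.84 to 9.61, and was not called (0.24 ± 0.16). At 1 week limma called 0 of the 15, and 2 had an unadjusted p below 0.05.

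Of the ubiquitin lists, few members were called, all of them lower on 5% protein. Of all genes, 12.4% were lower and 13.4% higher at 4 weeks, and 2.44% lower and 1.86% higher at 1 week, so the counts of 2 at 4 weeks below lie near the background. Of 17 ubiquitin, E1 and E2 genes, 4 were lower at 4 weeks and 3 at 1 week. At 4 weeks the conjugating enzymes Ube2e3 (-0.54 ± 0.08), Ube2r2 (-0.34 ± 0.07) and Ube2a (-0.39 ± 0.10) had the smallest p. At 1 week these were Ube2l3 (-0.37 ± 0.08), Ube2a (-0.39 ± 0.10) and the activating enzyme Uba1 (-0.21 ± 0.06). The list medians were -0.08 and -0.14 at 4 weeks and 1 week. Of 15 ubiquitin ligases, 2 were lower at 4 weeks (the cullin Cul4a, -0.51 ± 0.10, and Skp1, -0.25 ± 0.08) and 1 at 1 week (Skp1, -0.28 ± 0.08). Fbxo32, the ligase of muscle wasting, differed by 0.42 at 4 weeks and 0.75 at 1 week and was not called (adjusted p = 0.293 and 0.126, limma). Of 19 genes of p97 and of degradation from the endoplasmic reticulum, 2 were lower at 4 weeks (Edem1, which marks misfolded glycoproteins, -0.90 ± 0.16, and the lectin Os9, -0.30 ± 0.09). At 1 week 1 was lower (the ligase Rnf5, -0.67 ± 0.16). Medians of these 2 lists were -0.03 and -0.01 at 4 weeks.

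**Figure D5:**
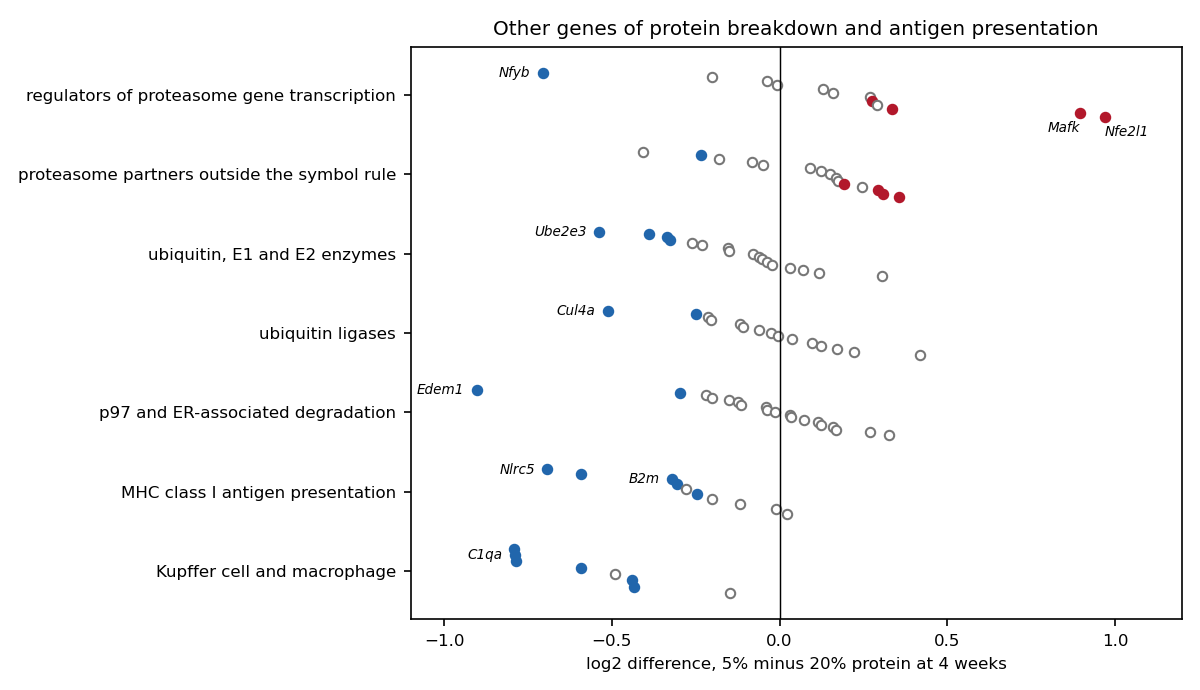
Log2 difference between the diets at 4 weeks (x axis, 5% minus 20% protein) of single genes in 7 lists (y axis). Filled red points were called higher on 5% protein, filled blue points lower, and open points were not called. Nfe2l1 (0.97) and Mafk (0.90) stand at the right, and the called MHC class I and Kupffer cell genes all lie to the left of 0.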

How the data were processed

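Liver RNA was labelled as cDNA without removal of ribosomal RNA and measured on Affymetrix whole-transcript arrays, per the labels. The authors deposited intensity of probe sets after RMA (background correction, quantile normalization and summary over probes), unlogged, per the labels and the submitters' processing notes; no version or filter is stated. Intensities ran from 3.27 to 15793 and were log2-transformed here. Of 29214 probe sets, 18644 paired with 1 symbol, 962 with several and 9608 with none. The brightest probe set by mean log2 was kept per gene (879 genes had more than 1). The 51 genes came from 54 such probe sets; 5 others matching several symbols were not used. All 51 symbols stood unchanged in RefSeq.

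The 4 group means were fitted in limma 3.58.1 (R 4.3.3, with data.table, version 1.17.8) without covariates, leaving 20 residual degrees of freedom, with a prior of 3.95. The code was tested on simulated data. Differences between runs came from 1 model of group and run means. Alternatives were quantile normalization, median centring, an offset of 16, the mean of probe sets, the dimmest 33.3% of genes left out, trend and robust estimation, only the groups compared, run as a covariate or alone, well row as a block, and each animal left out.

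The members, lists, markers and rules were chosen with earlier results of these data known. Values per group are given for the 12 genes with the smallest p at 4 weeks and the 6 at 1 week, at that time. They are also given at 4 weeks for 14 set members of known role. Of the 6 with the smallest p for diet by time, Psmb5 is given at 4 weeks only, Psmd2 at 1 week only and Psmc4 at neither. Genes called for the runs, and those named among markers, were named after their values were seen. Proteins were not compared here.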

Additional observations from a re-analysis of the deposited data

Results flagged for a closer look

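The diet effect differed between 4 weeks and 1 week for Psmg2 (0.52 ± 0.12, adjusted p = 0.0151, limma) and Psmb8 (-1.22 ± 0.33, adjusted p = 0.0308, limma), by a test of the difference itself. With run as a covariate neither was called (adjusted p = 0.0559 for Psmg2 and 0.0532 for Psmb8), and the call of Psmb8 was lost without any 1 of 8 animals. At 1 week it differed between animals 74 to 79 and 49 to 54 for Psmc2 (0.77), Psmd6 (0.64), Psmd12 (0.69) and Psme3 (1.06), with limma's adjusted p from 0.00174 to 0.0112.

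Single animals stood apart from the other 5 of their group in 10 of 104 group values tested by Dixon's criterion, which picks out about 5% of groups by chance. On 5% protein at 4 weeks, Psmd2 was 10.49 in animal 26 (next 10.70) and Psmd5 was 8.60 in animal 23 (next 8.21). On 20% protein at 4 weeks, Psma2 was 8.69 in animal 63 (next 8.87), Psmb10 was 8.33 in animal 30 (next 8.72) and Psmb6 was 9.82 in animal 73 (next 9.98). On 5% protein at 1 week, Psme1 was 11.06 in animal 54 (next 10.70), Psme2 was 10.84 in animal 74 (next 11.29) and Psmg4 was 8.60 in animal 74 (next 8.05). On 20% protein at 1 week, Psmd14 was 8.71 in animal 78 (next 9.52) and Psme4 was 10.13 in animal 52 (next 10.16).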

How the results depend on the processing

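No paired analysis was possible because no animal number occurs in more than 1 group. Other settings were run for the 21 gene results called for diet, time, diet by time or diet by run. Results without a call were left out of these counts. Psme3 at 1 week, for example, was not called and differed by -0.08 over both runs but by 0.45 within the later run. Of 199 values of called results under other settings, 160 kept their direction and their call, 39 kept the direction and lost the call, and 0 reversed. With 1 animal left out in turn, 394 of 456 kept both, 62 lost the call and 0 reversed. At 4 weeks Psmb8, Psmg4, Psmg2 and Psme4 kept their calls without any 1 animal. The cause of the changes below was not tested.

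Counts of the 51 genes moved as follows. At 4 weeks the 5 higher became 2 with run as a covariate, 2 in animals 22 to 32 and 2 in animals 59 to 73, and the 6 lower became 3 with the covariate and 2 in animals 59 to 73. Leaving out 1 animal gave 2 to 5 higher and 3 to 7 lower. The higher count was 2 without animal 32 and 3 without 63, 72 or 73, and the lower count was 3 without 32, 63 or 73. At 1 week the 2 lower became 1 under quantile normalization, 4 with run as a covariate, 9 in animals 49 to 54, 0 in animals 74 to 79 and 0 with well row as a block. Leaving out 1 animal gave 1 (52, 53, 74 or 75) to 6 (78).

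For diet by time, the 1 positive call became 3 without the dimmest 33.3% of genes and 0 with run as a covariate, and was 1 to 3 without 1 animal (3 without 26 or 29). The 1 negative call became 0 with the covariate and was 0 to 1 without 1 animal. On 5% protein, 4 weeks minus 1 week, the 1 higher became 2 in a fit of only the 2 groups and was 0 (animal 32) to 1 without 1 animal. The 0 lower became 1 under quantile normalization, 1 with an offset of 16 and 2 without the dimmest genes, and was 0 to 1 without 1 animal. On 20% protein the 1 lower became 0 under quantile normalization, trend and robust estimation, only the 2 groups, or well row as a block, and was 0 to 3 without 1 animal (3 without 29), while 0 were higher. Between the runs at 1 week, the 4 positive calls were 4 to 5 and the 0 negative calls 0 to 1 (without 75) when 1 animal was left out. RMA values give no signal over background, so what dim genes can show is not known.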
